A study of Homo sapiens with 15 samples.

Results

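The genes described here are 10 members of the machinery that moves a cell out of G1: the cyclins CCND1, CCND2, CCND3, CCNE1 and CCNE2, the kinases CDK2, CDK4 and CDK6, and the kinase inhibitors CDKN1B and CDKN2C. They were chosen by name, as the rows of the count table that carry these symbols, and they are 10 of its 22447 genes. RNA-seq was run on U251 cells, a human glioblastoma line labelled wild type, in 5 groups of 3 libraries: cells collected 24 h after 6 Gy, 24 h after 1 Gy, 6 h after 6 Gy and 6 h after 1 Gy of ionizing radiation, and unirradiated control cells. The 1 Gy and 6 Gy doses were used to follow a moderate and a high exposure of the same line. The control carries a 0 h label, yet by its record it was collected 24 h after the other cells had been irradiated. For the 6 h groups, unlike the 24 h groups, the effect of irradiation and that of the collection time cannot be told apart. All 5 groups are 1 cell line grown under the same conditions, with polyadenylated RNA as the input.

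A D-type cyclin joins CDK4 or CDK6 early in G1, and the complex starts to phosphorylate the retinoblastoma protein. This releases E2F transcription factors, whose targets include the E-type cyclins, and cyclin E with CDK2 then carries the cell into S phase. CDKN1B (p27) holds cyclin E-CDK2 in check, while CDKN2C (p18) belongs to the INK4 proteins that bind CDK4 and CDK6. In glioblastoma this pathway is among those most often altered, through the INK4 genes, CDK4, CDK6 or the retinoblastoma gene.

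The levels are in CPM, read counts relative to the size of their library as scaled by the TMM method of edgeR, over the 13 libraries that the study lists in its expression table. Replicate 3 of the control and replicate 2 of 1 Gy at 6 h are not in that table, no reason is given, and their CPM are stated separately. The 15 libraries held 8691338 to 11719631 counts. A gene is said to have risen or fallen where edgeR's quasi-likelihood test gave a Benjamini-Hochberg adjusted p under 0.05 over 12719 tested genes and an absolute log2 fold change over 0.5. Groups without overlap are named as a description only, as the share of all tested genes without overlap is not given. The smallest p that a two-sided exact permutation test can give is 0.2 for 3 against 2 libraries and 0.1 for 3 against 3. The libraries are biological replicates according to the methods, and a figure legend speaks of independent experiments. Neither says which libraries were irradiated together or apart, so each p measures the spread between these libraries. Of 8 listed genes of glia and glioblastoma lines, VIM (1369 to 1928 CPM), NES (320 to 396 CPM), SOX2 (233 to 275 CPM) and CD44 (1584 to 1934 CPM) were high in the 13 libraries. The others were low or absent: GFAP reached only 2.87 to 4.60 CPM and S100B 0.986 to 3.39 CPM. AQP4 was at 0 in 12 of the 13 libraries and OLIG2 in all of them. Among markers of other cell types, a median over 1 CPM was reached by 0 of 4 blood cell genes in the table, 1 of 3 epithelial genes (KRT5), 1 of 3 endothelial genes (CDH5) and 2 of 3 neuronal genes (SYP and SNAP25). Within these lists HBB, EPCAM and PECAM1 were at 0 in the 13 libraries. By contrast CD14 of the blood cell genes had 0.521 to 1.55 CPM, KRT5 0.417 to 2.77 CPM and CDH5 3.94 to 10.9 CPM. The endothelial genes summed to 9.33 to 11.8 CPM at 24 h after 6 Gy and 6.37 to 7.14 CPM in the control, nearly all of it CDH5, and the neuronal genes to 10.5 to 13.2 CPM at 24 h after 6 Gy and 8.10 to 8.21 CPM in the control. Their part in the results was not tested.

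After 6 Gy the libraries held less CCND1 and more CCNE1 RNA at 24 h than the control, and these were the only members that passed both limits. CCND1 fell to 0.671 of the control level and CCNE1 rose by a factor of 1.51. The 24 h level of CCNE1 was also 1.45 times higher after 6 Gy than with the 1 Gy dose. Members that met the adjusted p alone were CCNE2, CDK4, CDK2, CDK6 and CCND3, each with a smaller change in at least 1 comparison. CDKN1B did not meet it in any of the 9 comparisons, and CCND2 and CDKN2C were practically undetected.

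The sequence upstream of CCND1 and CCNE1 is shown because these are the members whose RNA passed the limits, in opposite directions. Each is the 250 bases of GRCh37 (hg19) that end 1 base before the start of the canonical GENCODE transcript, on the plus strand. The CCND1 window is chr11:69455674-69455923, and its last bases lie within the model of the gene in the count table, chr11:69455873-69469242. The CCNE1 window is chr19:30302648-30302897, upstream of the gene at chr19:30302901-30315215. Capitals mark the matches to the motifs searched on both strands.
CCND1: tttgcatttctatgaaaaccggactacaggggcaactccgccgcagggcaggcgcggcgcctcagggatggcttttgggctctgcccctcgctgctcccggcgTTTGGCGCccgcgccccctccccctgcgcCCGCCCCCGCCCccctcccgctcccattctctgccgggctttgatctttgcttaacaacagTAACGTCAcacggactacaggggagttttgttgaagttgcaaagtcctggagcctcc
CCNE1: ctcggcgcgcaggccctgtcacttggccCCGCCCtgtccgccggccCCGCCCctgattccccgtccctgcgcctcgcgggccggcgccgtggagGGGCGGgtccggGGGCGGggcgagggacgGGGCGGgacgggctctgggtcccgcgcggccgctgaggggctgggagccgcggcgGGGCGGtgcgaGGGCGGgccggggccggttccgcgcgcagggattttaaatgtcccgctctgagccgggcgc
In CCND1 the capitals hold 1 match to the E2F letters, TTTGGCGC, at 147 to 140 bases before the start. They also hold 1 match to the cyclic AMP response element, TAACGTCA, at 57 to 50 bases, and 2 GC boxes (GGGCGG on either strand). In CCNE1 the capitals are 7 GC boxes, and the window has no match to the letters searched for E2F (TTTCCCGC, TTTCGCGC, TTTGCCGC, TTTGGCGC), the response element (TGACGTCA, TAACGTCA) or AP-1 (TGACTCA or TGAGTCA). Over the windows of 11931 tested genes, 4.48% held an E2F match, 3.40% the response element, 2.41% AP-1 and 71.1% a GC box. The G and C content was 63.6% in CCND1 and 81.2% in CCNE1, against a median of 66.0% over those windows. The motifs and windows were chosen after the changes were known, and a match is a run of letters, not a bound site.

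**Figure D1:**
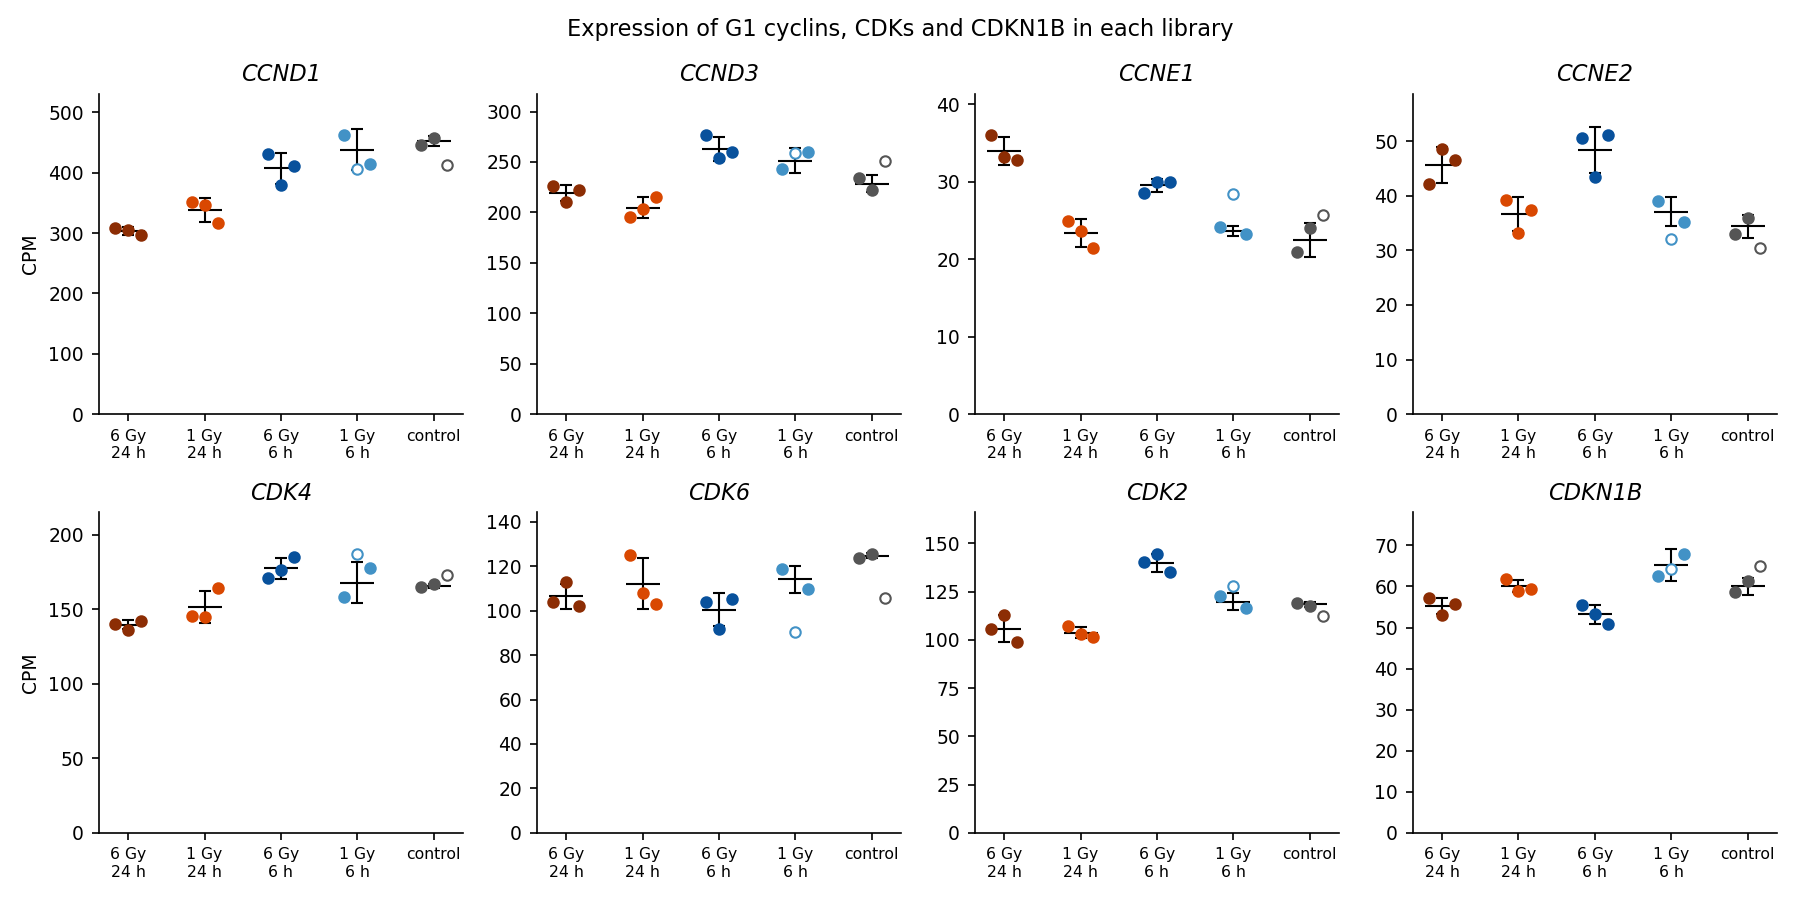
CPM (vertical axis, from 0) of the 8 detected genes in each library of the 5 groups (horizontal axis). Filled points are the 13 libraries of the fit, open points the 2 that the study's table leaves out, and the bars the mean and SD of the filled points. CCND1 was lowest in the 3 libraries of 6 Gy at 24 h (296 to 308 CPM) and CCNE1 highest in them (32.8 to 36.0 CPM).

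CCND1, the cyclin that links growth factor signals to CDK4 and CDK6, had 308, 306 and 296 CPM at 24 h after 6 Gy, against 446 and 458 CPM in the control. After 1 Gy at 24 h it had 352, 346 and 316 CPM. Every library of both 24 h groups lay below both control libraries, and every 6 Gy library below every 1 Gy library. The mean was 303 ± 6.17 CPM at 24 h after 6 Gy (SD, n = 3) and 452 ± 8.47 CPM in the control (SD, n = 2). The log2 fold change was -0.58 (SE 0.0691), with an adjusted p of 4.10e-06 from edgeR's quasi-likelihood test. CCND1 was thus 1 of 8 tested members that fell in this comparison, where 2.19% of all tested genes fell. As in any bulk sample, fewer cells in a phase that transcribes the gene and less RNA of it per cell cannot be told apart.

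For 1 Gy at 24 h the CCND1 difference from the control was -0.42 on the log2 scale (SE 0.0691, adjusted p = 3.14e-04 in edgeR's quasi-likelihood test), under the fold limit. Between the doses at 24 h it was -0.16 (SE 0.0627, adjusted p = 0.169), which does not meet the adjusted p limit. At 6 h CCND1 had 431, 380.1 and 411 CPM after 6 Gy, and 462 and 414 CPM after 1 Gy. The 6 Gy libraries lay below the control at 6 h, by -0.15 on the log2 scale (SE 0.0692, adjusted p = 0.302), and the 1 Gy libraries reached on both sides of it. The left-out libraries had 406 CPM at 6 h after 1 Gy and 413 CPM in the control.

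The CCND1 level at 24 h was lower than at 6 h after either dose. After 6 Gy the log2 difference between 24 h and 6 h was -0.43 (SE 0.0626, adjusted p = 2.36e-05 in edgeR's quasi-likelihood test) and after 1 Gy it was -0.37 (SE 0.0692, adjusted p = 7.46e-04), both under the fold limit. The difference between these, the interaction of dose and time, was -0.05 (SE 0.0936, adjusted p = 0.865). The mean of CCND1 was lowest in 6 Gy at 24 h (303 CPM), followed by 1 Gy at 24 h (338 CPM), 6 Gy at 6 h (407 CPM), 1 Gy at 6 h (438 CPM) and the control (452 CPM). Both 24 h groups were separate from their neighbours in this order, and each of the other groups overlapped the next.

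CCND3, the other D cyclin detected, had 226, 211 and 222 CPM at 24 h after 6 Gy and 195, 203 and 216 CPM at 24 h after 1 Gy, against 235 and 223 CPM in the control. The 6 Gy libraries overlapped the control, with a log2 difference of -0.06 (95% interval -0.20 to 0.08). At 6 h the levels were 276, 253 and 259 CPM after 6 Gy and 243 and 260.1 CPM after 1 Gy. These stood above the 2 control libraries of the fit, but the left-out control library had 250.8 CPM, within their range, and neither comparison met the adjusted p (0.124 and 0.998 in edgeR's quasi-likelihood test). Between 24 h and 6 h, CCND3 was lower by -0.26 on the log2 scale after 6 Gy (SE 0.0603, adjusted p = 0.00202) and by -0.30 after 1 Gy (SE 0.0672, adjusted p = 0.00426), with no overlap of libraries at either dose and both under the fold limit.

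The share of CCND1 in the summed RNA of the D cyclins combines the levels given above and is no separate evidence of them. Its size depends on the length used, as CCND3 has 2026 bases in the canonical transcript and 5761 with all annotated exons joined. Per kilobase of the canonical transcript, CCND1 made up 39.8 ± 1.05% of the CCND1 and CCND3 level at 24 h after 6 Gy (SD, n = 3), against 48.6 ± 1.40% in the control (SD, n = 2). The libraries did not overlap, and with 3 against 2 libraries the exact permutation test (two-sided) gave p = 0.2, the smallest it can give. With the left-out control library the exact permutation p was 0.1, again the smallest possible. CCND2, the D cyclin of other tissues and of some gliomas, had 1 count in 1 of 15 libraries, replicate 3 of 1 Gy at 6 h (0.111 CPM). A count of 0 allows up to 0.255 to 0.348 CPM in a single library, depending on its size and taking 3 counts as the limit for counting error.

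CDK4, the main kinase partner of the D cyclins by level here, had 140.3, 136 and 142 CPM at 24 h after 6 Gy and 146, 145 and 164 CPM at 24 h after 1 Gy, against 165 and 167 CPM in the control. All 6 irradiated libraries at 24 h lay below both control libraries. The difference was -0.25 on the log2 scale after 6 Gy (SE 0.0727, adjusted p = 0.0163 in edgeR's quasi-likelihood test), under the fold limit, and -0.13 after 1 Gy (SE 0.0727, adjusted p = 0.259). At 6 h CDK4 had 171, 176 and 185 CPM after 6 Gy and 158 and 177 CPM after 1 Gy, against the same control. The left-out control library had 173 CPM. The left-out library of 1 Gy at 6 h had 187 CPM, above every 6 Gy library at 6 h. After 6 Gy the 24 h level of CDK4 was lower than its 6 h level by -0.35 (SE 0.0653, adjusted p = 3.24e-04), again under the fold limit. CDK4 overlaps TSPAN31 on the other strand, and the sources do not state whether counting used the strand. TSPAN31 had 2419 counts over the 15 libraries against 23639 of CDK4, and its log2 difference at 24 h after 6 Gy was 0.48, of the opposite sign.

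CDK6, the second kinase of the D cyclins, had 104, 113 and 102 CPM at 24 h after 6 Gy and 125, 108 and 103 CPM at 24 h after 1 Gy, against 124 and 126 CPM in the control. At 6 h it had 104, 91.8 and 105 CPM after 6 Gy, and 119 and 109.9 CPM after 1 Gy. The 6 Gy libraries at 6 h were all below the control, by -0.31 on the log2 scale (SE 0.0847, adjusted p = 0.0463 in edgeR's quasi-likelihood test), under the fold limit. At 24 h the difference after 6 Gy was -0.23 (SE 0.0844, adjusted p = 0.0527). The left-out control library had only 106 CPM, inside the range of the 6 Gy libraries at 24 h, and the left-out library of 1 Gy at 6 h had 90.2 CPM, the lowest of all. With all 15 libraries the 6 h difference after 6 Gy was -0.23 and no longer met the adjusted p (0.287).

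CCNE1, a regulatory subunit of CDK2 that is made at the end of G1, had 36.0, 33.2 and 32.8 CPM at 24 h after 6 Gy, against 20.9 and 24.0 CPM in the control. At 24 h after 1 Gy it had 25.0, 23.6 and 21.4 CPM. Every 6 Gy library was above every library of the other 2 groups, while 1 Gy and control libraries overlapped. Its mean at 24 h was 34.0 ± 1.76 CPM with 6 Gy (SD, n = 3), 23.3 ± 1.80 CPM with 1 Gy (SD, n = 3) and 22.5 ± 2.23 CPM in the control (SD, n = 2). Against the control the log2 fold change at 24 h after 6 Gy was 0.59 (SE 0.10, adjusted p = 2.15e-04 in edgeR's quasi-likelihood test). CCNE1 was 1 of 8 tested members that rose, where 5.58% of all tested genes rose.

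The dose comparison at 24 h does not use the control. There CCNE1 was higher after 6 Gy by 0.54 on the log2 scale (SE 0.0885, adjusted p = 0.00188 in edgeR's quasi-likelihood test), and it was 1 of 8 tested members called higher, where 0.267% of tested genes were. In the lower direction 0 members were called, against 0.173% of genes. Both calls sit close to the fold limit. The first was lost without replicate 1 of the control (log2 0.50, just under the limit, adjusted p = 0.0130), the lower of the 2 control libraries. The second was lost without replicate 3 of 1 Gy at 24 h (0.48, adjusted p = 0.0123) or without replicate 1 of 6 Gy at 24 h (0.49, adjusted p = 0.0110).

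At 6 h CCNE1 had 28.6, 30.01 and 30.01 CPM after 6 Gy and 24.1 and 23.2 CPM after 1 Gy. The 6 Gy libraries stood above the control libraries, by 0.39 on the log2 scale (SE 0.102, adjusted p = 0.0379 in edgeR's quasi-likelihood test), under the fold limit. Against 1 Gy at 6 h the difference was 0.32 (SE 0.101, adjusted p = 0.250), and the left-out 1 Gy library, with 28.4 CPM, came within 1 CPM of the 6 Gy range. The left-out control library had 25.7 CPM, the highest control value. Between 24 h and 6 h after 6 Gy the difference was 0.20 (SE 0.0865, adjusted p = 0.0734), without overlap of the libraries. The interaction of dose and time was 0.22 (SE 0.135, adjusted p = 0.558), so the dose difference at 24 h was not shown to be larger than that at 6 h.

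CCNE2, the second E cyclin, had 42.1, 48.5 and 46.5 CPM at 24 h after 6 Gy and 39.2, 33.1 and 37.4 CPM at 24 h after 1 Gy, against 32.9 and 35.9 CPM in the control. At 6 h it had 50.5, 43.5 and 51.1 CPM after 6 Gy and 39.0 and 35.2 CPM after 1 Gy. At both times all 6 Gy libraries were above the control and above the 1 Gy libraries of the same time, and the 1 Gy libraries overlapped the control. Against the control the log2 fold change was 0.49 at 6 h after 6 Gy (SE 0.102, adjusted p = 0.00740 in edgeR's quasi-likelihood test) and 0.41 at 24 h (SE 0.102, adjusted p = 0.00593), both under the fold limit. The 6 h value crossed the limit with all 15 libraries (0.55, adjusted p = 0.00157), in which the left-out control library had 30.4 CPM and the left-out library of 1 Gy at 6 h 32.1 CPM. Without replicate 2 of the control it was 0.56 (adjusted p = 0.0386), and without replicate 2 of 6 Gy at 6 h 0.56 (adjusted p = 0.00422). Between the doses CCNE2 was higher after 6 Gy by 0.38 at 6 h (adjusted p = 0.0867) and by 0.32 at 24 h (adjusted p = 0.0524). CCNE2 overlaps INTS8 on the other strand, which had 11354 counts over the 15 libraries against 5829 of CCNE2. The log2 difference of INTS8 from the control was -0.03 at 6 h and 0.02 at 24 h after 6 Gy.

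**Figure D2:**
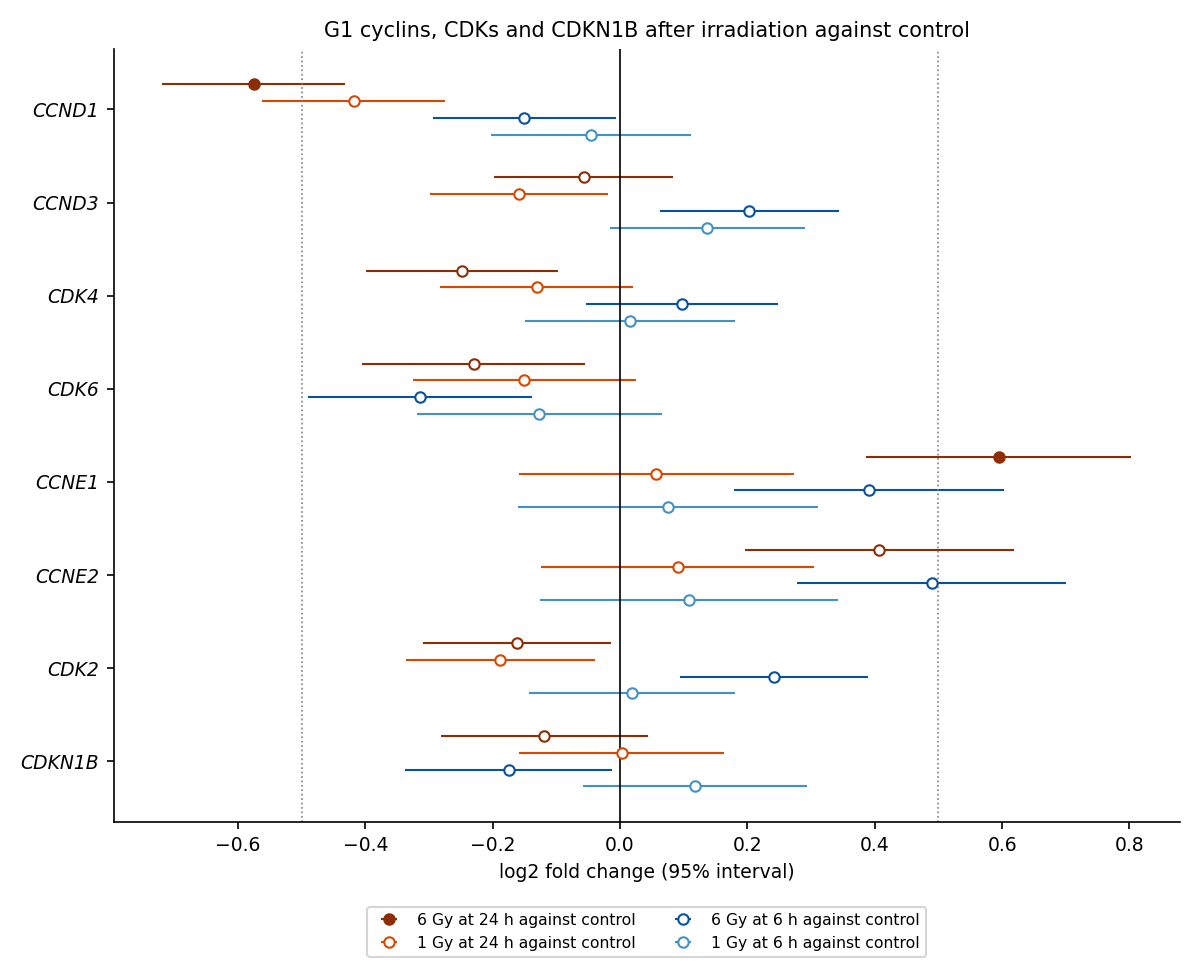
Log2 fold change against the control (horizontal axis) of the 8 tested genes (rows) for the 4 irradiated groups, with 95% intervals from edgeR and dotted lines at the fold limit of 0.5 in either direction. Filled points passed both limits: only CCND1 (-0.58) and CCNE1 (0.59) at 24 h after 6 Gy did so.

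CDK2, the kinase of the E cyclins, had 106, 113 and 98.7 CPM at 24 h after 6 Gy and 107, 103 and 101 CPM at 24 h after 1 Gy, against 119 and 117 CPM in the control. At 6 h it had 140.2, 145 and 135 CPM after 6 Gy and 123 and 117 CPM after 1 Gy. The 6 Gy group was thus above the control at 6 h and below it at 24 h, with no overlap either time in the fit, although the left-out control library, at 112 CPM, lay within the 24 h range. Neither difference met the adjusted p in edgeR's quasi-likelihood test (0.24 on the log2 scale with 0.0732 at 6 h, -0.16 with 0.103 at 24 h). The 24 h level after 6 Gy was lower than the 6 h level by -0.40 on the log2 scale (SE 0.0635, adjusted p = 4.85e-05), under the fold limit. After 1 Gy the same difference was -0.21 (SE 0.0712, adjusted p = 0.0520). CDK2 had the smallest adjusted p of the members for the interaction of dose and time, 0.451.

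CDKN1B, the inhibitor of cyclin E-CDK2, had 57.1, 53.1 and 55.6 CPM at 24 h after 6 Gy and 61.8, 58.9 and 59.5 CPM at 24 h after 1 Gy, against 58.6 and 61.4 CPM in the control. At 6 h it had 55.4, 53.3 and 50.7 CPM after 6 Gy, and 62.4 and 67.9 CPM after 1 Gy. All 6 Gy libraries were below those of 1 Gy and of the control at both times, by small margins. The log2 difference from the control was -0.12 at 24 h after 6 Gy (95% interval -0.28 to 0.04) and -0.18 at 6 h (95% interval -0.34 to -0.01, adjusted p = 0.289 in edgeR's quasi-likelihood test). The largest dose difference was -0.29 at 6 h (SE 0.0779, adjusted p = 0.0904). CDKN2C, the INK4 inhibitor of the group, had 0 counts in all 15 libraries. This allows up to 0.255 to 0.348 CPM in a single library, and less over the 15 libraries together.

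Some genes beside the undetected members also lacked reads, while others nearby did not. Next to CDKN2C, FAF1, MIR4421 and C1orf185 had 0 counts in all 15 libraries. Over the 13 libraries of the fit, RNF11 had a median of 135 CPM and EPS15 of 62.7 CPM. FAF1 encodes a FAS-associated protein. Next to CCND2, CCND2-AS1, FGF23 and FGF6 had 0 counts, and C12orf4 and RAD51AP1 had medians of 41.4 and 58.6 CPM. CDKN2A, the INK4 and ARF gene, had 1 count and CDKN2B 0 counts, while MTAP beside them had 101 to 134 CPM and CDKN2B-AS1 0.221 to 0.746 CPM. These neighbours were looked at after the 0 counts were seen.

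**Figure D3:**
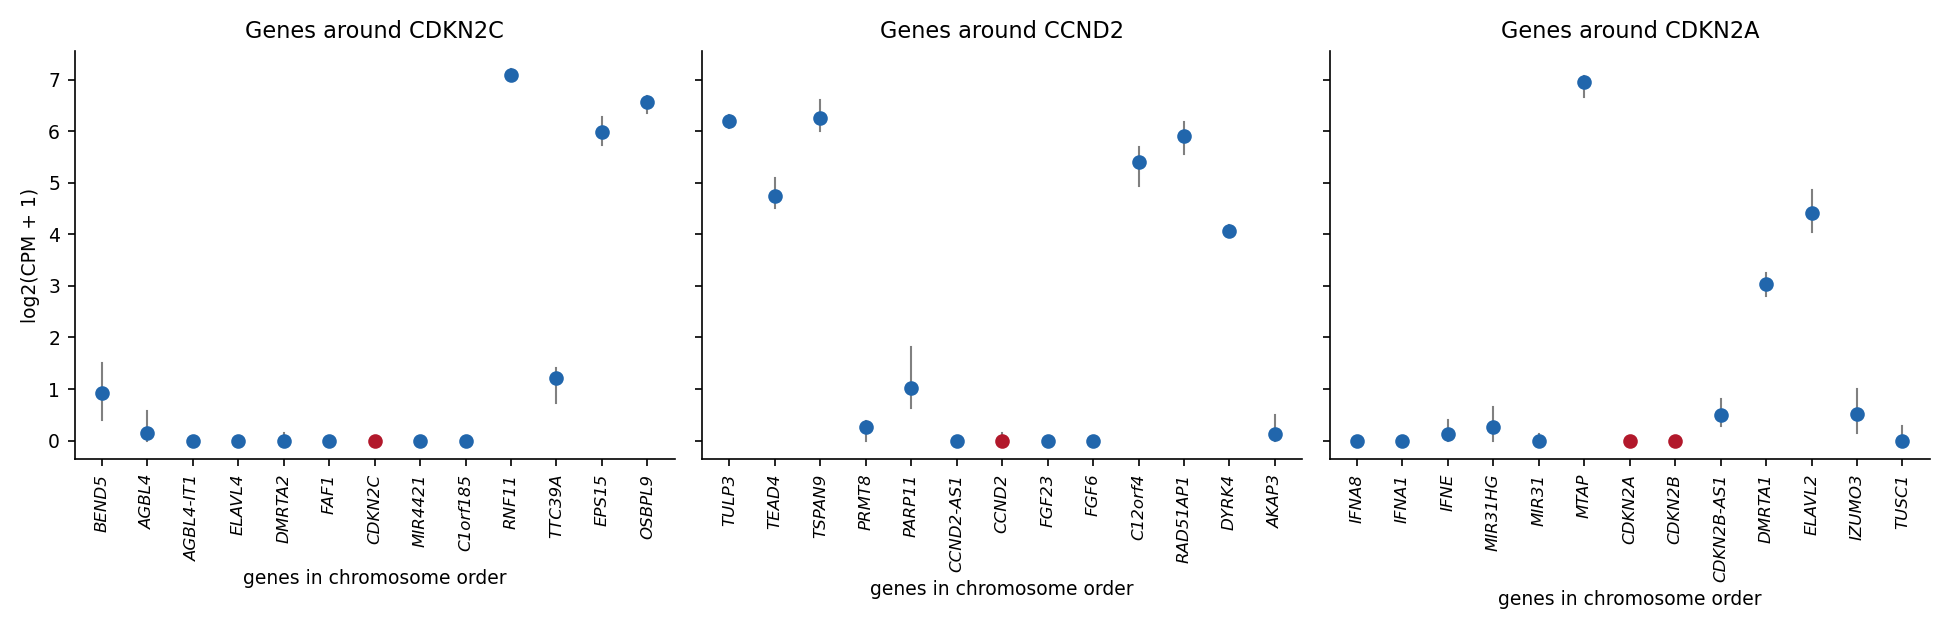
Level of the genes in chromosome order around CDKN2C, CCND2 and CDKN2A as log2(CPM + 1). Points are at the median, and lines run from the lowest to the highest of the 13 libraries of the fit. The undetected cell cycle genes are red and lie at or near 0, while MTAP, beside CDKN2A, has a median of 123 CPM.

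After 1 Gy at 6 h 0 of 8 tested members were called in a comparison where 0% of genes were, the smallest adjusted p of any gene was 0.297, and 0 members had an unadjusted p under 0.05. After 1 Gy at 24 h 0 of 8 were called where 4.42% of genes were, and 3 members had an unadjusted p under 0.05. After 6 Gy at 6 h 0 of 8 were called against 1.07% of genes, although 7 had an unadjusted p under 0.05. The adjusted p alone was met there by 2 members in the higher direction (CCNE1 and CCNE2), against 0.841% of genes, and by 1 in the lower direction (CDK6), against 2.04%. Between the doses at 6 h 0 of 8 were called against 0.582% of genes, with 5 at an unadjusted p under 0.05. Between the times the calls were 0 of 8 after 6 Gy, against 10.6% of genes, and 0 of 8 after 1 Gy, against 5.48%, with 5 and 3 members at an unadjusted p under 0.05. For the interaction they were 0 of 8 against 0.291%, with 0 at an unadjusted p under 0.05. Among all 12719 tested genes, 1948 had an unadjusted p under 0.05 at 6 h after 6 Gy. After 1 Gy the number was 395 at 6 h and 3407 at 24 h. It was 944 between the doses at 6 h and 1424 for the interaction. Between the times it was 5604 after 6 Gy and 3733 after 1 Gy. The member counts were not tested against these numbers. DESeq2 likewise called 0 members in each of these comparisons. The 4 comparisons with the control share the same control libraries.

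The median log2 difference of the 8 members was -0.14 at 24 h after 6 Gy and -0.14 at 24 h after 1 Gy, beside -0.00084 and 0.00082 over all tested genes. At 6 h it was 0.15 after 6 Gy and 0.05 after 1 Gy, beside 0.0034 and 0.0017. Only the 2 E cyclins were above 0 at 24 h after 6 Gy, and the other 6 members were below. With the adjusted p alone, 2 members were higher (CCNE1 and CCNE2) and 2 lower (CCND1 and CDK4) at 24 h after 6 Gy, beside 12.1% and 11.5% of all tested genes, and 1 was lower (CCND1) at 24 h after 1 Gy, beside 5.39%. Between 24 h and 6 h after 6 Gy, 4 members (CCND1, CCND3, CDK2 and CDK4) were lower with an adjusted p under 0.05 at any fold, a limit that 16.6% of all tested genes met in that direction, and 0 were higher. After 1 Gy it was 2 members (CCND1 and CCND3), where 7.29% of genes met it.

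The E cyclin reads were set against the D cyclin reads of the same library, a measure that needs no scaling between libraries. Per 100 reads of CCND1 and CCND3 there were 14.6, 15.8 and 15.3 reads of CCNE1 and CCNE2 at 24 h after 6 Gy, against 7.91 and 8.81 in the control. At 24 h after 1 Gy there were 11.7, 10.3 and 11.1, at 6 h after 6 Gy 11.2, 11.6 and 12.1, and at 6 h after 1 Gy 8.96 and 8.67. The 6 Gy libraries at 24 h were above all others, and the 1 Gy libraries at 6 h reached into the control range. The difference between 6 Gy and 1 Gy at 24 h was 4.21 reads per 100, with an exact two-sided permutation p = 0.1, the smallest that 3 against 3 libraries can give. Against the control the difference at 24 h after 6 Gy was 6.89, with an exact permutation p = 0.2, the smallest for 3 against 2. With the left-out control library, at 8.46, it was 6.85 (exact permutation p = 0.1, the smallest possible). These ratios combine genes whose changes are given above and are no separate evidence of them.

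**Figure D4:**
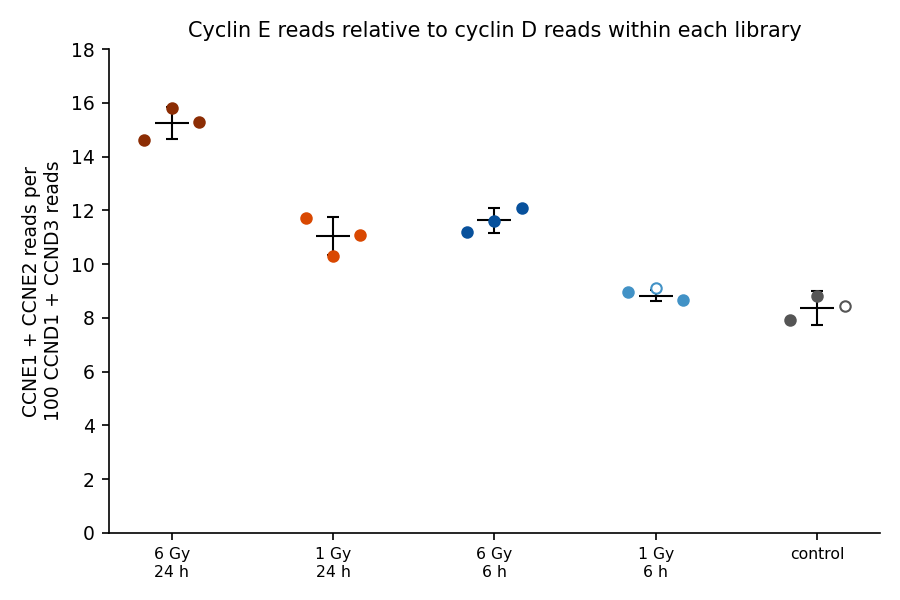
Reads of CCNE1 and CCNE2 per 100 reads of CCND1 and CCND3 (vertical axis, from 0) in each library of the 5 groups. Filled points are the libraries of the fit, open points the left-out ones, and bars the mean and SD of the filled points. The libraries of 6 Gy at 24 h lie between 14.6 and 15.8 and those of the control between 7.91 and 8.81.

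A ratio of CDKN1B to CDK2 reads was formed in the same way for the inhibitor and its target kinase. It was 0.396, 0.369 and 0.376 at 6 h after 6 Gy, and 0.508 and 0.583 at 6 h after 1 Gy, against 0.492 and 0.523 in the control. At 6 h the 6 Gy libraries were the lowest of all, without overlap (exact permutation p = 0.2 against the control, the smallest for 3 against 2 libraries). At 24 h the ratio was 0.539, 0.472 and 0.564 after 6 Gy, which overlapped the control, and 0.577, 0.573 and 0.586 after 1 Gy.

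Levels of different genes were ranked per kilobase of the canonical transcript, whereas the read ratios above were not corrected for transcript length. At 24 h after 6 Gy the order was CCND3 (108 CPM per kb), CDK4 (74.8), CCND1 (71.5), CDK2 (47.2), CDKN1B (22.9), CCNE1 (17.4), CCNE2 (17.1) and CDK6 (9.12). In the control it was CCND3 (113 CPM per kb), CCND1 (107), CDK4 (88.9), CDK2 (52.8), CDKN1B (24.9), CCNE2 (12.9), CCNE1 (11.5) and CDK6 (10.7). The ranges of CCND1 (105 to 108 CPM per kb) and CCND3 (109.9 to 116 CPM per kb) in the control were close but apart, and those of CCNE1 (10.7 to 12.3) and CCNE2 (12.3 to 13.4) nearly touched. The order depends on the length used: with all annotated exons of a gene joined, CCND1 came before CDK4 and CCND3 in the control, and CDKN1B came last of the 8. Per kilobase of canonical transcript, CDK4 made up 89.1 ± 0.743% of the CDK4 and CDK6 level at 24 h after 6 Gy (SD, n = 3) and 89.3 ± 0.0140% in the control (SD, n = 2).

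Across the 13 libraries, log2 CPM of the E cyclins went together (Pearson r = 0.79, 13 libraries), and so did CCND3 and CDK2 (r = 0.80). These values are descriptions over libraries of 5 groups, which share the group differences. Among the tested genes whose pattern was most like that of CCND1 were SMURF2 (Pearson r = 0.986 over 13 libraries) and DHX33 (0.979). For CCNE1 they were SEMA6C (0.918), KANK2 (0.904) and TUBB4A (0.894).

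Of the other CDK inhibitors in a list of 5, 3 were tested, since CDKN2A had 1 count and CDKN2B 0 counts in the 15 libraries. CDKN2D, an INK4 inhibitor of CDK4 and CDK6 like CDKN2C, averaged 14.5 ± 1.02 CPM at 24 h after 6 Gy (SD, n = 3) and 20.5 ± 1.00 CPM in the control (SD, n = 2). It fell by 0.50 on the log2 scale (SE 0.125, adjusted p = 0.00592 in edgeR's quasi-likelihood test), just over the fold limit. CDKN2D was the 1 gene of the list called in any comparison, against 2.19% of all tested genes that fell there. CDKN1A (p21), the p53 target that inhibits CDK2, averaged 97.0 ± 3.09 CPM at 24 h after 6 Gy (SD, n = 3) and 74.1 ± 3.02 CPM with 1 Gy (SD, n = 3), against 83.3 ± 0.507 CPM in the control (SD, n = 2). At 24 h its difference from the control was 0.22 on the log2 scale after 6 Gy (adjusted p = 0.0326) and -0.17 after 1 Gy (adjusted p = 0.148). Between the doses at 24 h it was 0.39 (SE 0.0657, adjusted p = 0.00230), under the fold limit. CDKN1C was not called in any comparison.

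Of the list of 13 retinoblastoma and E2F genes, the substrate and effectors of the G1 kinases, 12 were tested. At 24 h after 6 Gy 1 rose and 1 fell, where 5.58% of all tested genes rose and 2.19% fell. At 6 h after 6 Gy 1 fell, where 0.818% of all tested genes fell. E2F2, an activating E2F, averaged 57.9 ± 2.10 CPM at 24 h after 6 Gy (SD, n = 3) and 34.1 ± 1.06 CPM in the control (SD, n = 2), and rose by 0.76 on the log2 scale (SE 0.0893, adjusted p = 3.01e-06 in edgeR's quasi-likelihood test). E2F5, which represses targets together with the retinoblastoma-related proteins, averaged 12.5 ± 0.783 CPM at 24 h and 9.80 ± 1.10 CPM at 6 h after 6 Gy (SD, n = 3 each), against 19.3 ± 0.227 CPM in the control (SD, n = 2). It fell at both times, by 0.63 at 24 h (adjusted p = 4.85e-04) and by 0.98 at 6 h (adjusted p = 1.34e-05). Other genes of the list met the adjusted p after 6 Gy under the fold limit, in both directions. Those above the control were E2F1 at 24 h (0.32, adjusted p = 0.00755) and 6 h (0.42, adjusted p = 0.00432), and E2F2 at 6 h (0.33, adjusted p = 0.0484). Those below it were E2F6 at 24 h (-0.34, adjusted p = 0.0101) and the retinoblastoma relative RBL2 at 6 h (-0.39, adjusted p = 0.0145). At 24 h after 1 Gy E2F2 was also above the control (0.37, adjusted p = 0.00947 in edgeR's quasi-likelihood test), under the fold limit. E2F6 was below it there (-0.32, adjusted p = 0.0263), again under that limit.

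Of 16 listed activators and turnover factors of the G1 kinases, 14 were tested and 1 was called, in 1 comparison, 24 h against 6 h after 6 Gy, where 10.6% of all tested genes were called. CRYAB, a small heat shock protein that acts with FBXO4 on cyclin D1, was lower at 24 h than at 6 h after 6 Gy, with 16.5 ± 0.0855 and 23.9 ± 2.50 CPM (SD, n = 3 each), a log2 difference of -0.53 (SE 0.104, adjusted p = 4.65e-04 in edgeR's quasi-likelihood test). SKP2, which targets p27 for degradation, met the adjusted p in the same comparison (-0.32, adjusted p = 0.00134) under the fold limit. At any fold 3 genes of the list were lower by the adjusted p there, beside 16.6% of all tested genes. In the higher direction 1 gene of the 14 met it at 24 h after 6 Gy against the control, beside 12.1% of all tested genes. The same number, 1, met it between the doses at 24 h and between the times after 1 Gy. For these 2 comparisons the share over all tested genes is not given, so the counts are not read as a result about the list.

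The cyclins that act after G1 stood apart from the E cyclins at 6 h. Of CCNA2, CCNB1, CCNB2 and CDK1, 3 of 4 fell at 6 h after 6 Gy, where 0.818% of all tested genes fell. CCNB1, the main mitotic cyclin, averaged 200.2 ± 18.5 CPM there (SD, n = 3), against 526 ± 12.9 CPM in the control (SD, n = 2), and fell by 1.39 on the log2 scale (adjusted p = 3.77e-11 in edgeR's quasi-likelihood test). CCNB2 fell by 0.80 (adjusted p = 8.29e-08) and CCNA2, the S phase partner of CDK2, by 0.54 (adjusted p = 7.25e-06). At the same time CCNE1 and CCNE2 were 0.39 and 0.49 above the control on the log2 scale, under the fold limit. By 24 h after 6 Gy 0 of these 4 genes were called, where 5.58% of all tested genes rose and 2.19% fell. At any fold 3 of 4 were below the control by the adjusted p, beside 11.5% of all tested genes. The 3 were just under the fold limit: CCNA2 (-0.48, adjusted p = 1.20e-05), CCNB1 (-0.49, adjusted p = 1.03e-04) and CDK1 (-0.48, adjusted p = 6.26e-04 in edgeR's quasi-likelihood test). The list was chosen with earlier results of these data known.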

How the data were processed

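RNA-seq libraries of polyadenylated RNA (NEBNext Ultra) were made from U251 cells in 5 groups. Raw read counts per gene were made by the authors with TopHat (genome hg19) and HTSeq, of versions not given in the sources used here, and deposited as a table. Their table of comparisons, with their signal per library, fold changes, p-values and calls, was not used.

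The counts of 13 libraries were analysed in R 4.3.3 with edgeR 4.0.16: filterByExpr (minimum count 10, total 15, large group size 10, proportion 0.7), TMM scaling and one quasi-likelihood fit over the 5 groups, with 8 residual and 13.5 prior degrees of freedom and a biological coefficient of variation of 6.26%. P-values were adjusted over 12719 genes by Benjamini-Hochberg in each of 9 comparisons. The 13 libraries are those of the study's expression table. CPM of the 2 left-out libraries were scaled to the same reference. With 8691338 counts or more per library, precision was set mainly by the spread between 2 or 3 libraries. Limits for counts of 0 cover counting error only.

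Transcript lengths and start sites came from GENCODE v44lift37 and bases from GRCh37, both reference files. The genes named were all 10 members, each called gene of 4 related lists (at most 6 per list and comparison), and the 3 genes correlating best with each called member, of which 1 is not reported here. CDKN1A, CDK1, E2F1, E2F6, RBL2, SKP2 and the ratios were given after their values were seen. Members and lists were chosen with earlier results of these data known. Alternatives were other scalings, filters, thresholds and tests (DESeq2 1.42.0, edgeR's likelihood ratio), the full 15 libraries, separate fits per comparison, a block for the replicate number, and each library left out in turn. The steps were tested on simulated counts. Figures used matplotlib 3.10.9.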

Additional observations from a re-analysis of the deposited data

Results flagged for a closer look

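Some genes responded differently to the doses or times by a test of the difference itself, in edgeR's quasi-likelihood fit. CCNE1 differed between 6 Gy and 1 Gy at 24 h by 0.54 on the log2 scale (adjusted p = 0.00188), with all 3 libraries of 6 Gy above all 3 of 1 Gy. At 6 h 4 genes of the related lists were lower after 6 Gy than after 1 Gy: E2F5 by -0.80 (adjusted p = 3.97e-04), CCNA2 by -0.52 (adjusted p = 1.61e-05), CCNB1 by -1.18 (adjusted p = 8.70e-10) and CCNB2 by -0.68 (adjusted p = 1.61e-06). In that comparison 0.582% of all tested genes were called, in either direction. For CCNB1 and CCNB2 the dose difference also changed between the times, with an interaction of 0.83 (adjusted p = 1.47e-04) and 0.59 (adjusted p = 0.00311). The interaction was called for 0.291% of all tested genes. Groups of 2 or 3 libraries are too small for a test of single outlying libraries.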

How the results depend on the processing

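The same members were called under RLE size factors, library totals, both other filters, DESeq2, the likelihood ratio test and fits of only the groups compared, and no direction of a call reversed. The calls of genes in the related lists were not checked under the alternatives. CCNE2 was called higher at 6 h after 6 Gy with upper quartile scaling (1 member, log2 0.51, adjusted p = 0.00383) and with all 15 libraries (1 member). With no minimum fold, the members called were 1 lower at 24 h after 1 Gy, 2 higher and 1 lower at 6 h after 6 Gy, 2 higher and 2 lower at 24 h after 6 Gy, and, between the times, 4 lower after 6 Gy and 2 lower after 1 Gy. Over a log2 fold change of 1 they were 0 in each comparison, among them 0 higher and 0 lower at 24 h after 6 Gy and 0 higher between the doses at 24 h. Leaving out each of the 13 libraries gave 0 to 1 higher at 24 h after 6 Gy, 0 to 1 higher between the doses at 24 h, and 0 to 1 higher at 6 h after 6 Gy, while CCND1 was called at 24 h after 6 Gy each time (1 to 1). Of 100 levels, 8 moved by more than 1 SD: with library totals CCND1 at 24 h after 6 Gy (309.6 CPM) and CDK4 in the control (164 CPM), and with all 15 libraries CCNE1 (25.3) and CDK6 (106) at 6 h after 1 Gy, and CCND1 (439), CDK2 (116), CDK4 (168) and CDK6 (118) in the control.

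With the replicate block the log2 changes were -0.55 for CCND1 and 0.62 for CCNE1 at 24 h after 6 Gy and 0.54 for CCNE1 between the doses, and no call of a member changed. The adjusted p alone crossed 0.05 in 11 of 72 member tests, each time to a lower value with the block, among them CCND1 between the doses at 24 h (-0.16, 0.0290 against 0.169), CCNE2 between the doses at 6 h (0.0205 against 0.0867) and 24 h (0.0118 against 0.0524), CDKN1B between the doses at 6 h (0.0422 against 0.0904), CDK2 at 6 h after 6 Gy (0.00495 against 0.0732) and CDK6 at 24 h after 6 Gy (0.0283 against 0.0527). Over all genes, 109 were called between the doses at 24 h with the block and 56 without. The 22 pairs of libraries with the same number had correlations of deviations from the group means of 0.0287 to 0.256 (median 0.0943), and 45 other pairs -0.256 to 0.122 (median -0.063). Of 13 libraries 11 correlated best with one of their own number, a hint from the data only. In a group of 2 libraries the deviations are mirror images, so the values of other pairs are partly fixed by those of same-number pairs. Since not each same-number pair passed 0.1, a limit chosen here, the numbers were not taken to pair the libraries. With 2 or 3 libraries per group, the CCNE1 calls near the limit of 0.5 turned on a single library. The CCND1 call was kept with each library left out in turn. CCND2 and CDKN2C had 1 and 0 counts over the 15 libraries.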
